A study of Mus musculus with 96 samples.

Results

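The adult haemoglobin chain genes of the mouse, the alpha chain genes Hba-a1 and Hba-a2 and the beta chain genes Hbb-bs and Hbb-bt, were followed in liver RNA of 48 F1 mice. These are 4 of the 38924 genes in the deposited tables, taken by their symbols, and all 4 passed the filter on low counts that left 11979 genes. They were selected on their total counts, whose spread between mice of the same group was wide, so that this spread is described below and not tested. Differences between groups and the shares of the 2 parental alleles were not used to choose them.

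Adult haemoglobin is a tetramer of alpha and beta globin chains, each holding a haem group that binds oxygen. Its chains are made in the erythroid cells of the bone marrow and spleen, and their mRNA persists in reticulocytes, the young red cells of the blood. The adult liver no longer makes red cells in bulk, but it is rich in blood, and its Kupffer cells clear old red cells and recycle their haem iron. Each chain is encoded by a pair of near-identical adjacent copies, the alpha pair on chromosome 11 and the beta pair on chromosome 7.

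The mice were males from reciprocal crosses of the inbred strains NOD/ShiLtJ, which is prone to autoimmune diabetes, and PWK/PhJ, a strain of wild origin. In NODxPWK and PWKxNOD the name of the dam was taken to come first. Cholecalciferol (vitamin D3) in the diet was 0.009 g/kg in the normal and 0.05 g/kg in the high form. With a younger and an older age this gave 8 groups of 6 mice. The labels give the ages as 8 and as 24 or 25 with no unit and the protocol gives other ages for the younger mice, so ages are called younger and older here. All 7 mice labelled 25 were older mice on the normal diet. No label says whether the livers were perfused to remove blood.

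Depth ranged from 2.03 to 7.48 M summed expected counts per mouse, with a median of 5.27 M. The shallowest 6 mice, all of 1 barcode, held 2.03 to 3.09 M. Expected counts are estimated counts per gene and allele, and CPM are counts scaled to a common library size. Together the 4 genes held 126 to 4782 counts per mouse (median 1314), or 0.00259 to 0.0741% of a library. Hepatocyte markers summed to 80936 to 145746 CPM. Markers of exocrine pancreas summed to 16.9 to 2173 CPM and exceeded 60 CPM in 10 mice.

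The copies of a pair are nearly the same sequence, which limits what short reads can tell apart. Hba-a1 (ENSMUSG00000069919) lies at chr11:32283511-32284465 and Hba-a2 (ENSMUSG00000069917) at chr11:32296489-32297298, both on the plus strand of GRCm38. Hbb-bs (ENSMUSG00000052305) lies at chr7:103826534-103828096 and Hbb-bt (ENSMUSG00000073940) at chr7:103812524-103813996, both on the minus strand. In the GENCODE M21 transcripts the coding sequences of the alpha pair, 429 bases each, differed at 1 base (C381T, from Hba-a1 to Hba-a2). Those of the beta pair, 444 bases each, also differed at 1 base (C417T, from Hbb-bs to Hbb-bt). Positions are counted from 1 at the first base of the start codon. The NOD and PWK sequences of these genes were not compared, so these differences are those of the reference. The 60 coding bases around each difference are shown because no other coding base separates the copies in this reference, with that base in capitals.
Hba-a1, coding bases 351 to 410: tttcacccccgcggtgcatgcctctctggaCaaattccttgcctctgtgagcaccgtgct
Hba-a2, coding bases 351 to 410: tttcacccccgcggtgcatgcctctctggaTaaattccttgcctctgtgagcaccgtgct
Hbb-bs, coding bases 385 to 444: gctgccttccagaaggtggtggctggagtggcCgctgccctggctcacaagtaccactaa
Hbb-bt, coding bases 385 to 444: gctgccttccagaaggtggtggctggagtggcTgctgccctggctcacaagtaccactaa

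Of the windows of read length (68 bases) in a reference transcript, 63.8% for Hba-a1, 82.8% for Hba-a2, 64.7% for Hbb-bs and 57.1% for Hbb-bt also occurred in the partner copy. None occurred in a transcript of another gene. By this reference, counts of the pair are firmer than those of a single copy. Values for a single copy depend on how the authors' method shared out reads. Alpha and beta coding sequences matched at 63.2 to 63.5% of aligned bases.

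Promoters of the 4 genes share short motifs, and they are shown because the 4 transcripts moved together. In the 250 bases before the RefSeq start (build GRCm38.p6), Hba-a1 and Hba-a2 were identical over 247 aligned bases and Hbb-bs and Hbb-bt matched at 73.3%. Capitals mark 4 motifs on either strand that were picked with the sequences in view. The motif GATAAG holds the core that GATA factors of erythroid cells bind, and the motif CACCC holds a core bound by Krüppel-like factors. The other two are the promoter box CCAAT and a form of the box bound by the general initiation machinery, ATATAA. Adjacent motifs run together in the capitals. The GENCODE gene starts of all 4 genes lie inside these windows.
Hba-a2, chr11:32296242-32296491, plus strand: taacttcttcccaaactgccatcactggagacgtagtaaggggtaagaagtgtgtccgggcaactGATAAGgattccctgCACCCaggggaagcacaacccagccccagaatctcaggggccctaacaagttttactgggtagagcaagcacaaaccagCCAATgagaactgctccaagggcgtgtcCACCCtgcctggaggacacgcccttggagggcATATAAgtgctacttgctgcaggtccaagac
Hbb-bs, chr7:103827929-103828178, minus strand: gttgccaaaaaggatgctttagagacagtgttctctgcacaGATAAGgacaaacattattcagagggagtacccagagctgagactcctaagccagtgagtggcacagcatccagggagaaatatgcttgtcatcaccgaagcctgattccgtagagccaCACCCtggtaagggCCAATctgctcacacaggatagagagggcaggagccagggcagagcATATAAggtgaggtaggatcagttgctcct
Hbb-bt, chr7:103813924-103814173, minus strand: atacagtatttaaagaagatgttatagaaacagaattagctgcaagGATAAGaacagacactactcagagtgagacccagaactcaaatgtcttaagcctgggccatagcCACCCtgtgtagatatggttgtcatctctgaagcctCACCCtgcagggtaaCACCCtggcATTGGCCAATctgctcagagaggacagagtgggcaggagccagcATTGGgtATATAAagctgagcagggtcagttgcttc

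All 4 promoters held each of the 4 motifs, which were picked with the sequences in view, so this is description only. Also searched were AGATAA, held by Hbb-bs only, and TGATAA, held by Hba-a1 and Hba-a2 only. Among 27025 genes with a window of the same length, GATAAG was found in 6.6%, ATATAA in 9.5%, CCAAT in 34.5% and CACCC in 51.3%. AGATAA was found in 10.3% and TGATAA in 8.2%. A match describes these letters only.

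Within every group the levels of the 4 transcripts spread widely. The lowest, median and highest values of the 6 mice of a group are given in that order, in CPM. For Hbb-bs in NODxPWK mice they were 9.34, 60.2 and 177 (normal younger), 15.98, 41.9 and 182 (normal older), 14.7, 94.3 and 129.5 (high younger) and 8.93, 70.2 and 176 (high older). In PWKxNOD mice Hbb-bs stood at 33.1, 78.6 and 139 (normal younger), 14.2, 95.5 and 108 (normal older), 14.5, 65.0 and 116 (high younger) and 27.8, 87.8 and 212 (high older). No group stood apart: the range from 33.1 to 108 CPM lay within all 8. The lowest mouse of all was a high older NODxPWK mouse and the highest a high older PWKxNOD mouse, 23.8-fold apart.

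Hbb-bt, the other beta copy, had 2.63, 22.9 and 68.6 (normal younger), 6.98, 16.7 and 69.0 (normal older), 5.25, 38.2 and 48.97 (high younger) and 5.72, 27.995 and 67.4 CPM (high older) in NODxPWK mice. In PWKxNOD mice it had 8.97, 30.1 and 49.1 (normal younger), 4.55, 35.3 and 39.7 (normal older), 5.74, 18.2 and 34.2 (high younger) and 8.52, 27.95 and 79.5 CPM (high older). Again the groups overlapped, with 8.97 to 34.2 CPM common to all.

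Hba-a1, of the alpha pair, had 5.66, 40.04 and 175 (normal younger), 10.7, 42.8 and 197 (normal older), 12.9, 87.6 and 133 (high younger) and 14.8, 74.8 and 183 CPM (high older) in NODxPWK mice. Its PWKxNOD values were 29.2, 59.4 and 109.8 (normal younger), 14.7, 78.6 and 115 (normal older), 10.7, 59.7 and 90.7 (high younger) and 20.8, 72.2 and 216 CPM (high older). In 3 of the 6 high older PWKxNOD mice each of the 4 transcripts was several times lower than in the other 3. Hba-a2 ran from 6.43 to 217 CPM in NODxPWK mice (median 75.4) and from 13.7 to 244 CPM in PWKxNOD mice (median 76.2).

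**Figure D1:**
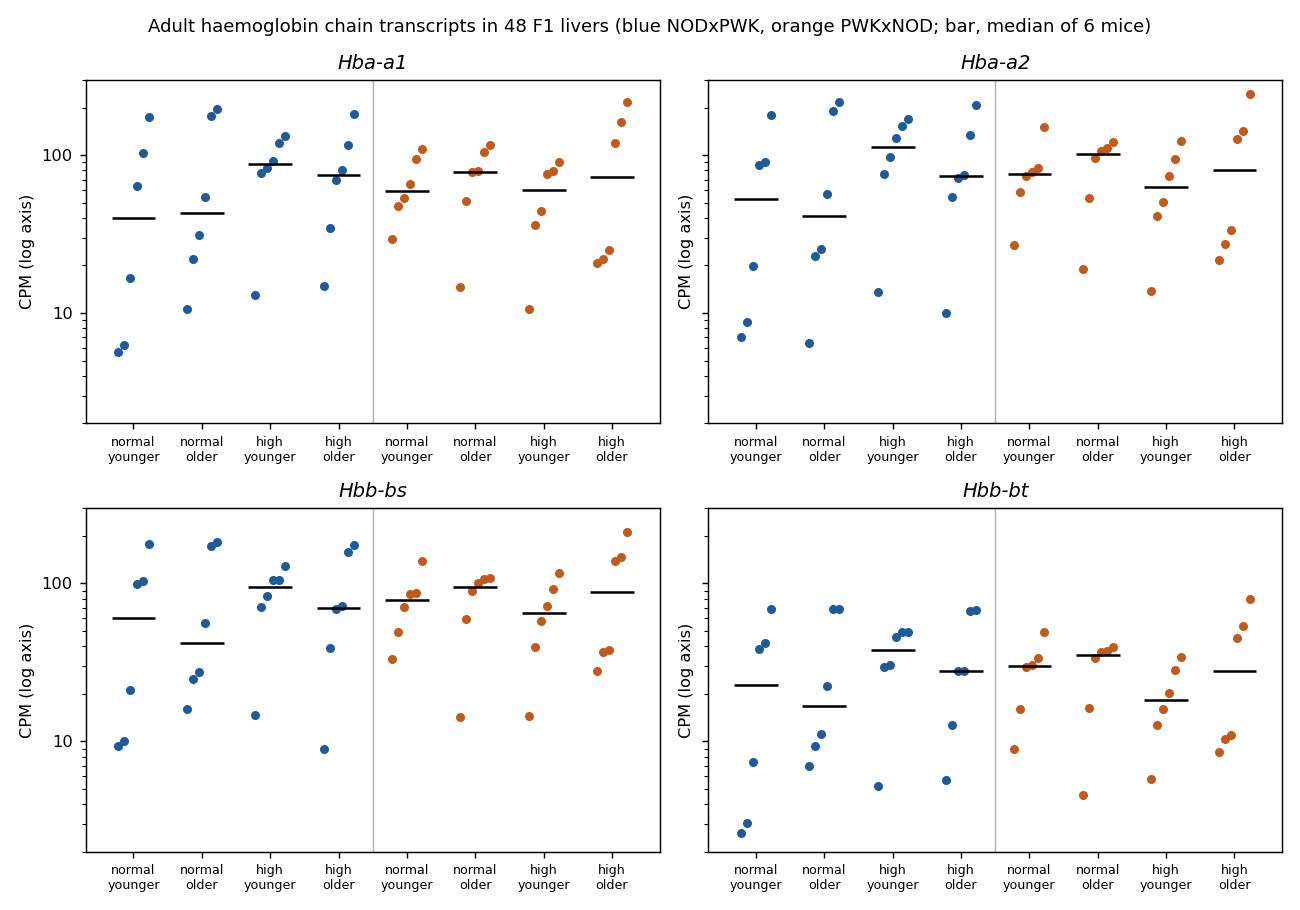
Level of each haemoglobin chain transcript in CPM on a log axis, 1 point per mouse, 6 mice in each of 8 groups, with a bar at the group median (blue, NODxPWK; orange, PWKxNOD). Points spread over more than 10-fold in many groups, and the groups overlap for all 4 genes.

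The spread within groups, as the SD of log2 CPM around group means, was 1.39 for Hba-a1, 1.43 for Hba-a2, 1.31 for Hbb-bs and 1.32 for Hbb-bt. The median SD of all 11979 genes was 0.26, and the 4 genes ranked 69, 64, 90 and 87 from the top. Group means accounted for 5.33 to 7.70% of their variance. In bulk tissue, fewer cells carrying a transcript and less of it per cell cannot be told apart.

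The 4 transcripts rose and fell together between mice. Over 48 mice, deviations from the group mean correlated with a Pearson r of 0.974 (Hba-a2 with Hbb-bt) to 0.988 (Hbb-bs with Hbb-bt), and Spearman's rho was 0.975 to 0.986. Without the 2 mice farthest from the median of Hbb-bs, r was 0.970 to 0.989. All points of a pair come from the same libraries, and reads shared between copies add to r within a pair. Between the pairs no window of the reference transcripts is shared, and there r was 0.974 to 0.982.

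Per kilobase of transcript, Hba-a2 had the highest median level (136 CPM per kb), followed by Hbb-bs (114), Hba-a1 (104) and Hbb-bt (41.1). Hba-a2 ranked first in 37 of 48 mice and Hbb-bs in 10, and Hbb-bt was last in all 48. This order depends on the annotated transcript lengths, 699 bases for Hba-a1 and 554 for Hba-a2. Before scaling by length, the medians of Hba-a1 and Hba-a2 were 72.4 and 75.4 CPM. The levels of neighbours in this order overlapped widely across mice, with SDs of 111, 85.9, 78.8 and 30.1 CPM per kb. Albumin, the main plasma protein of hepatocytes, stood at a median of 26638 CPM per kb.

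Balance between the chains varied far less than their level. The ratio of alpha pair to beta pair counts, not corrected for length, had a median of 1.42 and ran from 0.744 to 1.79 over 48 mice. Group medians ran from 1.24 (PWKxNOD high older) to 1.63 (NODxPWK high older), and the ranges of the groups overlapped. Hba-a1 to Hba-a2 counts had a median ratio of 0.882 (0.643 to 1.66). Hbb-bs to Hbb-bt counts had a median ratio of 2.56 (1.60 to 3.96) in NODxPWK and 3.00 (2.41 to 4.08) in PWKxNOD mice. The ranges overlapped, while the means were 2.60 ± 0.42 and 3.06 ± 0.45 (SD, n = 24). Whether this ratio differs between the crosses was not tested.

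The age comparison asks whether the transcripts differ between older and younger livers. Hba-a1 was at 83.3 ± 64.5 CPM (SD, n = 24) at the older age, against 67.7 ± 43.7 CPM at the younger. Hbb-bs was at 86.7 ± 62.3 and 74.4 ± 44.6 CPM. No member passed the test for age, which called 12% of all genes. The log2 difference of older minus younger was 0.22 ± 0.34 (SE) for Hbb-bs, 0.26 ± 0.34 for Hbb-bt, 0.22 ± 0.36 for Hba-a2 and 0.31 ± 0.36 for Hba-a1 (adjusted p = 0.672 to 0.776, edgeR's quasi-likelihood test). The 95% interval for Hbb-bs was -0.44 to 0.88, which reaches from 0.736-fold to 1.84-fold. Without the 7 mice labelled 25 all 4 differences turned negative (-0.20 to -0.05).

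Of the other genes of the pathway, haem synthesis genes were higher in older mice in 5 of 9 tested cases, with none lower. Alad, the second enzyme of the pathway, rose by 0.33 ± 0.06 (adjusted p = 7.52e-05, edgeR), and Fech, which inserts iron into the ring, rose by 0.10 ± 0.03 (adjusted p = 0.018, edgeR). Among 19 red cell genes tested 3 rose and 1 fell, and among 23 genes of haem and iron handling 7 rose and 2 fell. The median log2 difference was 0.10 for haem synthesis, -0.01 for red cell genes and 0.14 for haem and iron handling, against 0.00 for all genes. Several of these genes are made by hepatocytes as well. Beside them, 7 of 14 clock genes were lower and 1 higher in older mice (median -0.39), and both bile duct genes tested were higher (median 0.77). Their part in the haem synthesis difference was not tested. Alas2, the enzyme that starts haem synthesis in erythroid cells, rose by 0.26 ± 0.09 on average over the groups (adjusted p = 0.0384, edgeR). This call was lost in 8 of 16 alternatives (adjusted p up to 0.345). Group means of Alas2 rose on the high diet, from 155 ± 26.4 to 217 ± 23.9 CPM in NODxPWK mice (SD, n = 6). In PWKxNOD mice on that diet they rose from 9.12 ± 2.17 to 14.4 ± 6.09 CPM. On the normal diet they were 196 ± 18.9 (younger) and 201 ± 22.5 CPM (older) in NODxPWK mice. PWKxNOD mice on the normal diet had 12.05 ± 3.23 (younger) and 11.05 ± 1.56 CPM (older).

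Vitamin D was the second factor. Mice on the high diet had 84.3 ± 55.1 CPM of Hbb-bs (SD, n = 24), and those on the normal diet 76.8 ± 53.7 CPM. No haemoglobin gene was called, beside 0.342% of all genes. Differences of high minus normal were 0.12 ± 0.34 for Hbb-bs, 0.08 ± 0.34 for Hbb-bt, 0.16 ± 0.36 for Hba-a1 and 0.19 ± 0.36 for Hba-a2 (adjusted p = 0.925 to 0.982, edgeR's quasi-likelihood test). For Hbb-bs the 95% interval was -0.54 to 0.78. These small differences turned negative without the third or the fifth lane set, the mice sharing a flowcell lane (-0.26 to -0.02). No red cell, haem synthesis or haem and iron handling gene was called for the diet.

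Cross direction did not separate the haemoglobin genes either, while it separated Alas2. Hbb-bs averaged 80.6 ± 48.1 CPM (SD, n = 24) in PWKxNOD and 80.5 ± 60.3 CPM in NODxPWK mice. The log2 difference of PWKxNOD minus NODxPWK was 0.00 ± 0.34 for Hbb-bs, -0.21 ± 0.34 for Hbb-bt, -0.11 ± 0.36 for Hba-a1 and -0.07 ± 0.36 for Hba-a2. None was called (adjusted p = 0.796 to 1.00, edgeR's quasi-likelihood test), where 10.7% of all genes were. The sign of each turned in at least 3 of 16 alternatives. In the interactions, too, no haemoglobin gene was called (adjusted p = 0.836 to 0.998, edgeR), beside 0.618% of genes for age by diet, 0.0501% for age by cross and 0.125% for diet by cross.

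Alas2 (ENSMUSG00000025270) is X-linked, and a male carries only the X chromosome of the dam. In NODxPWK mice, whose X is from NOD, Alas2 ran from 115 to 249.6 CPM with a median of 194. PWKxNOD mice, whose X is from PWK, had 5.89 to 22.3 CPM with a median of 10.8. The crosses did not overlap, and the log2 difference was -4.03 ± 0.09 (adjusted p = 8.52e-36, edgeR), with -4.08 to -3.95 over 16 alternatives. Of Alas2 counts, 0.0805% in NODxPWK and 97.6% in PWKxNOD mice were given to the PWK allele.

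Red cell genes other than Alas2 and Tent5c, a poly-A polymerase gene (-0.42 ± 0.10, adjusted p = 0.00416, edgeR), were not called for the cross. Alas1, the same step in all other cells, was higher in PWKxNOD mice by 1.58 ± 0.29 (adjusted p = 0.000141, edgeR). In the clock list, whose genes follow the time of day, 12 of 14 genes were called for the cross, 8 higher and 4 lower. Pancreas markers were called for 8 of 14 genes, all higher in PWKxNOD mice. The part of either in the Alas1 and Alas2 differences was not tested.

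Since the 2 levels of Alas2 form separate clusters, its relation to Hbb-bs is given within each cross. Over 24 PWKxNOD mice, deviations from group means had r = 0.737 and rho = 0.793, with r = 0.886 without the 2 mice farthest in Hbb-bs and 0.439 to 0.938 in single groups. Only 3 of 11975 genes had a higher r in that cross. Over 24 NODxPWK mice r was 0.297 and rho 0.307, with r = 0.201 without the 2 farthest mice. The slope of log2 Alas2 on log2 Hbb-bs was 0.29 in PWKxNOD and 0.04 in NODxPWK mice. The difference of these slopes had the smallest p of all genes and was not called (adjusted p = 0.457, edgeR), and 0% of genes were, with 404 past an unadjusted p of 0.05. This comparison of slopes was chosen after the values were seen.

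**Figure D2:**
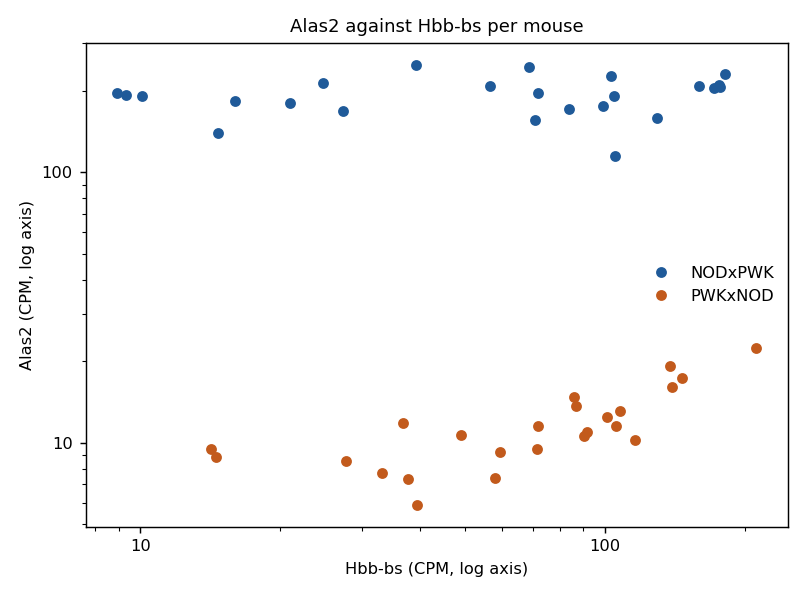
Alas2 against Hbb-bs in each of 48 livers, both in CPM on log axes (blue, NODxPWK; orange, PWKxNOD). The crosses lie in separate bands of Alas2, 115 to 249.6 and 5.89 to 22.3 CPM, over overlapping ranges of Hbb-bs.

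Allele shares could be read for the beta chain genes only. For Hba-a1 and Hba-a2 the deposited NOD and PWK counts were equal in all 48 mice (within 1e-06 percentage points of 50%), which carries no information on the alleles. The same was true of 468 of the 9362 autosomal genes tested (5.00%). Whether the alpha genes differ between the alleles was therefore not measurable here.

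Hbb-bt counts went mostly to the PWK allele. The lowest, median and highest PWK shares in NODxPWK mice were 74.1, 80.1 and 100% (normal younger), 63.1, 72.4 and 85.1% (normal older), 62.0, 76.6 and 77.0% (high younger) and 60.02, 77.5 and 100% (high older). In PWKxNOD mice they were 69.7, 76.0 and 92.7% (normal younger), 69.7, 73.9 and 93.8% (normal older), 67.6, 81.9 and 94.6% (high younger) and 63.5, 72.1 and 100% (high older). All 48 mice lay above 50%, and the 3 mice at 100% held at most 31.5 counts of Hbb-bt. The log2 ratio of PWK over NOD was 1.77 ± 0.13 (adjusted p = 2.93e-15, edgeR), with 1.65 to 1.99 over 11 alternatives.

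Hbb-bs shares lay close to 50%. They ran from 42.4 to 70.6% in NODxPWK mice (median 51.1%) and from 44.6 to 62.8% in PWKxNOD mice (median 52.5%), above 50% in 30 of 48 mice. Its log2 ratio of PWK over NOD was 0.15 ± 0.05 (adjusted p = 0.00755, edgeR). This call was lost without the second lane set (0.12, adjusted p = 0.0603, edgeR) and without the 7 mice labelled 25 (0.09, adjusted p = 0.388, edgeR). The ratio differed from 0 for 43.6% of the 9362 genes tested. In all 48 mice the share was higher for Hbb-bt than for Hbb-bs.

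Because 64.7% of Hbb-bs and 57.1% of Hbb-bt windows of the reference occur in the partner, a read of one copy can be given to the other. How many windows the NOD and PWK alleles share was not examined. The summed pair is given as well, though reads that match different alleles of the copies could also move its share. The PWK share of the beta pair was 58.4% in the median mouse (48.4 to 76.5%) and above 50% in 47 of 48 mice. How much of the Hbb-bt share comes from how reads were divided was not tested.

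No parent-of-origin, age or diet effect on the allele ratio was called for either beta gene. The maternal over paternal log2 ratio was -0.02 ± 0.05 for Hbb-bs and 0.06 ± 0.13 for Hbb-bt (adjusted p = 1 for both, edgeR), where 0.267% of genes were called. Older minus younger gave 0.01 ± 0.09 and -0.24 ± 0.26 (0.705% of genes called), and high minus normal vitamin D gave -0.07 ± 0.09 and -0.03 ± 0.25 (0.0214% called), all with an adjusted p of 1 by edgeR.

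**Figure D3:**
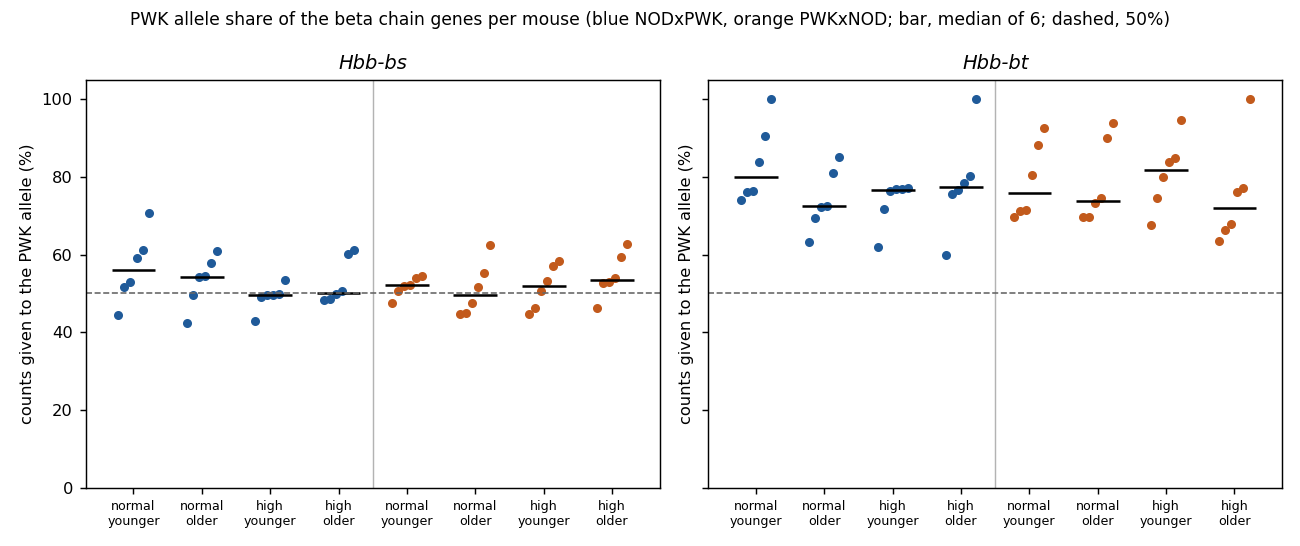
Percent of the counts of Hbb-bs and Hbb-bt given to the PWK allele, 1 point per mouse, with a bar at the median of 6 mice and a dashed line at 50%. All 48 mice lie above the line for Hbb-bt and 30 of 48 for Hbb-bs, in both crosses.

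Genes that varied with Hbb-bs between mice of a group were then listed, by a slope on log2 Hbb-bs CPM added to the 8 group means. This run of haemoglobin against stellate cell and matrix genes was known when the genes were chosen, so it is described and lends no independent support. Of 11975 genes 31 were higher with Hbb-bs (0.259%) and 127 lower (1.06%). The number called higher was unstable: it was 3 of 104 called genes without the first lane set. With Hba-a1 as covariate it was 132 of 291. The median slope over all genes was 0.00 and the median r 0.01.

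Of the 10 genes lowest against Hbb-bs, 4 are on the stellate cell list (Dcn, Colec11, Ecm1 and Col14a1), Lamb1 is on the matrix list and 5 are on neither. Stellate cells are the liver's vitamin A storing pericytes and its main source of matrix. The lowest r was that of Dcn, which encodes the proteoglycan decorin, at r = -0.889 and rho = -0.891 over 48 mice (r = -0.877 without the 2 farthest mice). Dcn stood at 64.1 CPM in the mouse with the least Hbb-bs and at 12.1 CPM in that with the most. Its slope was -0.60 ± 0.05, which is 0.254 times the Dcn level for each 10-fold rise of Hbb-bs. In each of the 8 groups r was negative (-0.989 to -0.577), as it was in each of the 6 lane sets (-0.950 to -0.841).

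The other 9 of the 10 genes with the lowest r had r = -0.880 to -0.855. They were Sod3, extracellular superoxide dismutase (r = -0.880), Prelp, a matrix proteoglycan (-0.869), Gdf2, which encodes the ligand BMP9 (-0.867), and Colec11, a collectin (-0.867). Lamb1 and Lama1, laminin chains of basement membranes, had -0.864 and -0.857. Ecm1, a secreted matrix protein, Col14a1, a collagen, and Tgfbi, a matrix adhesion protein, had -0.860, -0.859 and -0.855. Among 10305 named genes with a mean of at least 2 CPM, the next one, Bmp5, had -0.854, 5% of genes lay below -0.326 and 93 lay below -0.5.

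**Figure D4:**
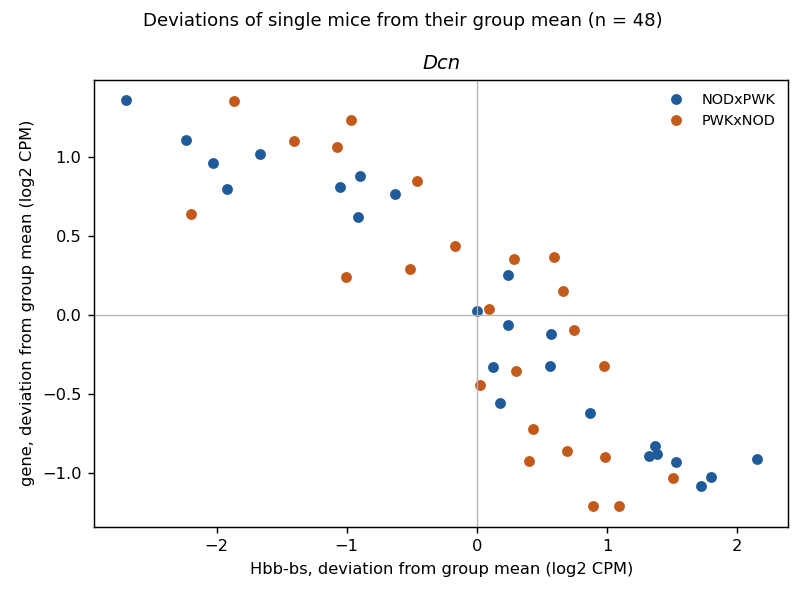
Deviation of Dcn from the group mean against that of Hbb-bs, in log2 CPM, 1 point per mouse (blue, NODxPWK; orange, PWKxNOD). Dcn falls steeply with Hbb-bs in both crosses (r = -0.961 and -0.816).

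All 19 stellate cell markers had r below 0 with Hbb-bs (-0.889 to -0.265). This relation was known when the genes were chosen, so the calls given here describe it and do not test it. The slopes of 17 were called lower and those of 2, Col1a1 and Des, were not called. The 5 with the smallest p were Dcn, Reln (r = -0.848), Colec11, Col14a1 and Pdgfrb (-0.837), which encodes a growth factor receptor of pericytes. Lrat, the enzyme that stores vitamin A in these cells, had r = -0.777. The summed level of the 19 markers ran from 123 to 569 CPM and had r = -0.891 with Hbb-bs (rho = -0.884, r = -0.876 without the 2 farthest mice). The number of slopes called was 15 to 17 over 20 alternatives. Cygb, the globin of stellate cells, was lower with Hbb-bs too, with r = -0.576, and was the only other globin with enough counts to test. Its call was lost without the first lane set (slope -0.28, adjusted p = 0.0790, edgeR).

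Of 20 further extracellular matrix genes, whose run against haemoglobin was also known beforehand, 16 had r below 0 and 4 above. No slope was called higher and 9 were called lower. Among these 9 were Bgn, which encodes the proteoglycan biglycan (r = -0.847), Col5a1 (-0.746), Nid1 (-0.737) and Fbn1 (-0.673). The other 11 ran from r = -0.423 to 0.288 and were not called. The summed level of this list, which abundant genes dominate, had r = 0.000607.

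**Figure D5:**
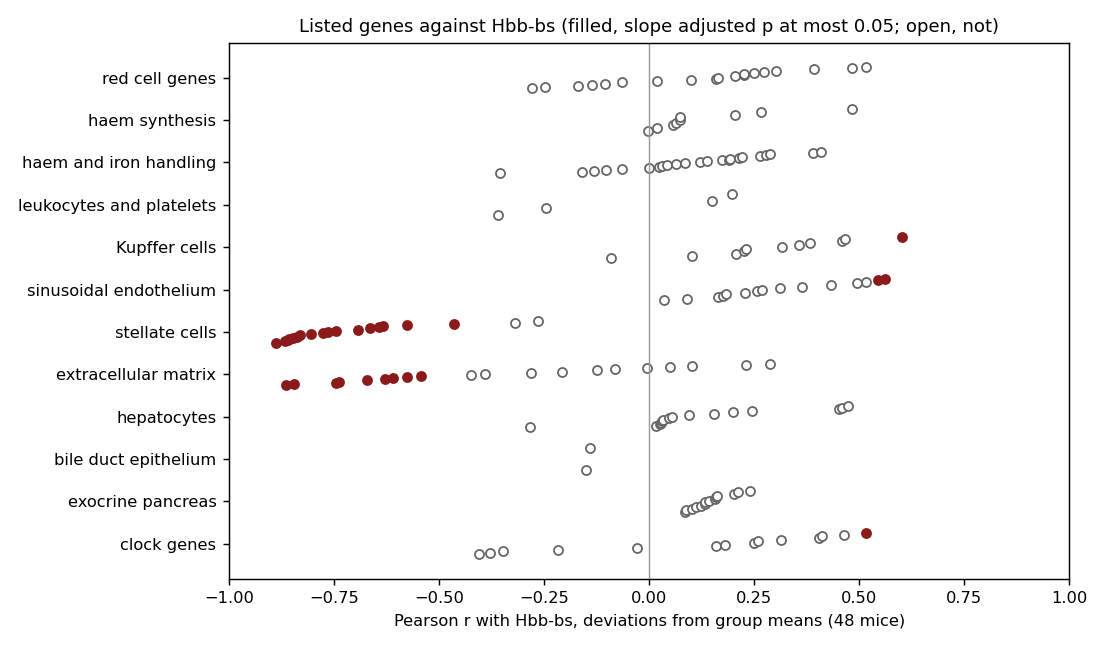
Pearson r between each listed gene and Hbb-bs over 48 mice, as deviations from group means, 1 point per tested gene (filled, slope with an adjusted p of at most 0.05; open, not). Stellate cell genes lie between -0.889 and -0.265, and red cell genes between -0.279 and 0.517 with none filled.

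Genes highest with Hbb-bs moved much less. Rdh5, a retinol dehydrogenase, had r = 0.640 and rho = 0.602 (r = 0.584 without the 2 farthest mice), positive in 8 of 8 groups. Its slope of 0.11 ± 0.02 is 1.30 times the level for each 10-fold rise of Hbb-bs. Ctsb, the lysosomal protease cathepsin B, had r = 0.612, and Cd68, a lysosomal protein of macrophages, 0.601. Rbp4, the plasma carrier of retinol, had 0.592, and Fetub, a fetuin, 0.582. Igfbp4, which binds insulin-like growth factors, had 0.566, Fcgr2b, an inhibitory IgG receptor, 0.561, and Ndfip1, a ubiquitin ligase adaptor, 0.558. The next gene, Npc1, also had 0.558. Ctsb was not called, and the calls of the other 7 genes named here were lost in 3 to 11 of 20 alternatives.

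Other cell types moved less with haemoglobin. Kupffer cell markers had 1 of 11 genes higher (Cd68), with r above 0 in 10 of 11, and their summed level had r = 0.431. Sinusoidal endothelium had 2 of 15 higher, Fcgr2b and Stab2, a scavenger receptor (r = 0.545), with r above 0 in all 15 and a summed r of 0.398. The calls of Fcgr2b and Stab2 were each lost in 9 of 20 alternatives, with an adjusted p of up to 0.279 and 0.350 by edgeR. In the clock list 1 of 14 was higher, the output gene Tef (r = 0.517), whose call was lost in 14 of 20 alternatives (adjusted p up to 0.314, edgeR). No gene was called among 15 hepatocyte, 2 bile duct, 14 exocrine pancreas and 4 leukocyte and platelet genes tested, and their summed levels had r = 0.0481, -0.275, 0.175 and -0.255.

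Of 19 red cell genes tested with the filter on low counts none was called with Hbb-bs, and r ran from -0.279 to 0.517. With Hba-a1 in place of Hbb-bs 2 were called, with Hba-a2 or the sum of the 4 genes 1, and without the third lane set 1. The highest r was Aqp1, a water channel of red cells and endothelium (slope 0.06 ± 0.02, adjusted p = 0.0614, edgeR). Within the crosses r differed for some of these genes. Klf1, at a mean of 3.66 CPM, had r = 0.750 in PWKxNOD and -0.0066 in NODxPWK mice, and Car2 had 0.591 and -0.0028. Aqp1 leaned the other way, with 0.218 and 0.696, as did Sptb, with -0.0559 and 0.398. These genes were picked after their values were seen, and no slope difference between crosses was called (0% of all genes). Of 37 red cell genes with a row of counts, 18 failed the filter and were too low to test. Tspo2 had no count in any mouse, and Epb42 and Kel had 1 count each over all 48 mice.

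With no filter 2 genes of the red cell list were called with Hbb-bs. Slc4a1, the anion exchanger band 3 of the red cell membrane, had 52 counts in all and missed the threshold (slope 0.70 ± 0.19, r = 0.479, adjusted p = 0.0707, edgeR). In that fit 0.078% of 24365 genes were higher with Hbb-bs. This gene was singled out after its values were seen, and with at most 7 counts in a mouse each value is imprecise.

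Of the 10 other globins listed, 6 were not seen. Hba-x, Hbb-y, Hbb-bh1, Hbb-bh2, Hbb-bh3 and Hbq1a had 0 counts in all 48 mice, a count that allows up to 3 in the summed libraries. Hbq1b had 2 counts, Ngb 13 and Mb, myoglobin of muscle, 41.

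No gene of haem synthesis or of haem and iron handling was called with Hbb-bs over all 48 mice. Over the 8 haem synthesis genes other than Alas2 r ran from -0.00344 (Ppox) to 0.267 (Alad). Among 23 genes of haem and iron handling r ran from -0.354 (Epor, the erythropoietin receptor) to 0.409 (Slc46a1, a folate and haem transporter), with 0.389 for Tfr2, an iron sensor of hepatocytes, which was positive in 8 of 8 groups. Hmox1, which opens the haem ring, had r = 0.191, Cd163, the receptor that takes up haptoglobin-bound haemoglobin, 0.138, Slc40a1, the iron exporter ferroportin, 0.263, and Hamp, the iron hormone hepcidin, 0.0849. Hp and Hpx, the plasma carriers of free haemoglobin and haem, had r = -0.000141 and 0.213.

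Technical measures other than the barcode moved little with Hbb-bs. Its deviations had r = 0.0965 with log2 library size, -0.227 with the scaling factor, 0.0703 with the number of genes detected, 0.175 with the pancreas sum and -0.172 with the mitochondrial share. Median Hbb-bs ran from 48.3 to 94.7 CPM over the 6 lane sets, with wide overlap. Over the 8 barcodes it ran from 26.8 to 144 CPM. The barcode with the lowest median held mice at 10.1 to 83.6 CPM, and another held mice at 68.7 to 212 CPM. Barcode was in no fit, and its part was not tested. Dissection, blood content and the lobe sampled are not given in the labels, and their part in the spread was not tested.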

How the data were processed

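Poly-A RNA of 48 livers was sequenced as unstranded 68-base single reads, per the labels' protocols and the design text. The submitters' processing notes name CASAVA 1.7.0, Bowtie 1.1.2 and the build GRCm38/mm10, with no role for any. The authors deposited expected counts (estimated counts per gene, from EMASE per the labels) in a NOD and a PWK table, 1 column per mouse in each; 96 label entries are 2 flowcell runs of each mouse. The tables were summed for totals and rounded for tests. Symbols were found for 37607 of 38924 genes; the others held 0.159% of counts.

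Totals were tested with edgeR 4.0.16 (quasi-likelihood test, TMM scaling, R 4.3.3) on 8 group means, with Benjamini-Hochberg adjustment over 11979 genes and a threshold of 0.05. Allele ratios were tested over 9362 autosomal genes with a mean of at least 20 counts. Correlations and the SD around group means use log2(CPM + 0.5). Levels in CPM or CPM per kb, and the SDs given with them, are not logged. Genes varying with Hbb-bs were tested by a slope added to the group means. The genes named are the 10 with the highest and the 10 with the lowest r, over genes averaging 2 CPM or more, and up to 5 called members of each list. The members and the gene lists were chosen with earlier results of these data known. The fits were tested on simulated data. Alternatives used DESeq2 1.42.0, limma 3.58.1, other filters and scalings, and fewer mice.

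The replicate number is the lane set per the labels, so it marks a shared batch. Deviations of 168 pairs of mice sharing a lane set had a mean correlation of -0.00466 (32 pairs above 0.1), and other pairs 0.00112. No 2 mice of a group agreed within sampling noise (chi-square per gene 4.28 to 53.5 over 120 pairs). Intervals cover the spread between mice. Ahsp was not analysed here, and a few genes picked by this rule were left out of the text.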

Additional observations from a re-analysis of the deposited data

Results flagged for a closer look

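In 7 of 80 checks of groups of 6 mice, the lowest mouse stood apart from the rest, with a gap to its neighbour above Dixon's 95% critical share of the group's range. Chance gives about 1 in 20. In NODxPWK high younger mice, replicate 1 was lowest for all 4 haemoglobin genes, at 12.9 CPM for Hba-a1, 13.6 CPM for Hba-a2, 14.7 CPM for Hbb-bs and 5.25 CPM for Hbb-bt. These 4 flags are 1 library, since the 4 genes move together. PWKxNOD normal older replicate 3 was low for Hbb-bs, at 14.2 CPM. The PWK share of Hbb-bt was low in NODxPWK high younger replicate 4, at 62%. The ratio of alpha to beta counts was low in NODxPWK normal older replicate 4, at 0.744.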

How the results depend on the processing

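Of 1236 alternative values, 1036 counted as the same, and no haemoglobin gene was called for age, diet, cross or an interaction in any. For a difference or slope, the same means an equal direction and side of the threshold. For a number of genes it means a change of at most 1.5 times, and for a level or share a change within its SD between mice. Numbers of genes called moved by over 1.5 times as follows, and the cause was not tested. Without the 7 mice labelled 25 there were 777 for age, 0 for diet, 845 for cross, 0 for age by diet, 0 for age by cross, 4 for diet by cross and 16 for diet on the allele ratio. Without the 10 mice with pancreas markers over 60 CPM, an alternative chosen after seeing the data, there were 895 for age, 0 for diet, 1 for age by diet and 0 for diet by cross. With DESeq2 there were 125 for diet, 164 for age by diet, 40 for age by cross and 52 for diet by cross. With no filter there were 24 for diet, 23 for age by diet and 2 for diet by cross. Without the shallowest barcode there were 15 for diet, 38 for age by diet and 2 for age by cross. A mean of at least 100 counts gave 2684 for PWK over NOD, limma gave 40 for age and 1 for diet on the allele ratio, and Hba-a1 as covariate gave 291 genes in place of 158.

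Leaving out 1 lane set (replicate number) at a time gave 6 to 43 genes for diet, 4 to 90 for age by diet, 0 to 8 for age by cross, 0 to 90 for diet by cross, 16 to 23 for parent of origin, 39 to 51 for age and 0 to 2 for diet on the allele ratio, and 104 to 143 that varied with Hbb-bs. Of the stellate cell list 15 to 16 genes were then called with Hbb-bs, of the matrix list 8 to 9 and of the red cell list 0 to 1.

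With the replicate block there were 3 genes for age by cross, 0 for diet on the allele ratio (limma) and 130 that varied with Hbb-bs, 123 of them shared with the 158. The block turned the cross difference of Hbb-bs to -0.035 and changed no call of a haemoglobin gene.

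Signs of uncalled differences turned in these cases. Without the 7 mice labelled 25, age gave -0.047 (Hba-a1), -0.20 (Hba-a2), -0.17 (Hbb-bs) and -0.10 (Hbb-bt), and cross gave 0.24 (Hba-a1), 0.40 (Hba-a2) and 0.18 (Hbb-bt). Without the pancreas mice cross gave 0.27, 0.33 and 0.17 for the same genes. For Hbb-bs, cross gave -0.0068 with no filter and -0.0075 with DESeq2. Without the mice labelled 25, Hbb-bs had 0.073 for maternal over paternal, -0.11 for age and 0.054 for diet on the allele ratio, and Hbb-bt had 0.20 for diet on the allele ratio. Leaving out 1 lane set at a time, diet ranged from -0.17 to 0.42 (Hba-a1), -0.12 to 0.43 (Hba-a2), -0.22 to 0.39 (Hbb-bs) and -0.26 to 0.32 (Hbb-bt). Cross then ranged from -0.24 to 0.12, -0.22 to 0.18, -0.071 to 0.20 and -0.29 to 0.032 in the same order. Maternal over paternal ranged from -0.066 to 0.014 (Hbb-bs) and -0.0071 to 0.12 (Hbb-bt), age on the Hbb-bs ratio from -0.020 to 0.059, and diet on the ratio from -0.12 to 0.018 (Hbb-bs) and -0.17 to 0.12 (Hbb-bt). Depth limits the Hbb-bt share in the mice with the fewest counts: the 3 mice at 100% held at most 31.5 counts.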
